A study of Nannospalax ehrenbergi and Mus musculus with 25 samples.

Results

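The expression of 10 white fat and adipokine genes was followed across 25 RNA-seq libraries of neck tissue from the blind mole rat Spalax, a long-lived subterranean rodent, and from mice. The genes were Pparg and Cebpa, which encode transcription factors, Adipoq, Lep, Retn and Cfd, which encode secreted proteins, and Fabp4, Plin1, Plin4 and Lipe, which encode proteins that carry, coat or break down lipid. They were taken by name, and all 10 were found among the 27988 genes of the Spalax table and the 47593 genes of the mouse table. Cfd was selected for its measured response, which went in opposite directions in the Spalax and mouse fibrosarcomas, and the other 9 were added as the white fat genes around it. The Cfd values behind that selection are therefore given without a test.

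Animals had received a single subcutaneous injection of 3-methylcholanthrene (3MCA), a polycyclic hydrocarbon that gives rise to sarcomas where it is deposited, at 1 mg in Spalax and 200 µg in mice. Spalax were wild-caught, with ages estimated from about 2 to over 10 years, and mice were C57BL/6 males of 3 to 4 months. The Spalax control group was neck muscle of 4 untreated females. The Spalax tolerant group was the injected site of 4 animals, 3 males and 1 female, that had no tumor 18 or 30 months after 3MCA. A granuloma had formed in 2 females at 14 and 16 months, and a fibrosarcoma in a female and a male at 18 and 30 months. Each of these 4 animals gave 1 library of the injected side (IS), which was the lesion, and 1 of the uninjected side (UIS), which was muscle. The mouse groups were 3 untreated controls and 3 animals with a fibrosarcoma 11, 12 and 14 weeks after 3MCA, again with IS and UIS from each. In both species control and tolerant libraries were dual-indexed and libraries of tumor-bearing animals single-indexed, and the share of males differed between Spalax groups, so index type, sex and group cannot be told apart when these are compared.

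White fat cells store triglyceride in a single large droplet and release fatty acids from it on demand. PPARγ, the product of Pparg, and C/EBPα, the product of Cebpa, switch on the fat cell program, and mature fat cells secrete hormones such as adiponectin and leptin. Adipsin, the product of Cfd, is both an adipokine and complement factor D, the protease of the alternative complement pathway. Fat cells are known to lie between the fascicles of skeletal muscle and under the skin of the neck.

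Read totals ran from 17025447 to 23386729 in the Spalax libraries and from 22143060 to 31179183 in the mouse libraries. Every level below is a normalised count, that is, reads divided by 1 size factor per library, and can be compared between libraries of a species but neither between genes nor between species. The libraries matched their tissue labels by the summed level of the skeletal muscle markers present, 6 in Spalax and 8 in mouse. These sums were 547811 to 2818744 in the 12 Spalax muscle libraries and 87 to 2836 in the 4 Spalax lesions, and 885890 to 3474770 in the 6 mouse muscle libraries and 63.6 to 56843 in the 3 mouse lesions.

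In the lesions, most fat genes stood far below the muscle of the other side of the same animals, while Cfd in Spalax fibrosarcoma and Cebpa in granuloma measured higher on IS in both animals. In the granuloma 4 of the 8 members tested were lower on IS than on UIS and none was higher (limma on log2(value + 1), Benjamini-Hochberg adjusted p up to 0.05), beside 12.6% of the 14735 genes tested that were lower. In the Spalax fibrosarcoma 5 of 9 members tested were lower, beside 19.0% of 14696 genes, and in the mouse fibrosarcoma 8 of 9 were lower, beside 22.3% of 15220 genes. The selection of Cfd used the last 2 contrasts, so nothing is read from those counts. The median log2 fold change of the members tested was −3.04, −3.83 and −5.83 in granuloma, Spalax fibrosarcoma and mouse, beside −0.01, 0.03 and 0.11 over all genes tested. Lep in all 3 contrasts and Plin1 in the granuloma were too low to be tested. A member that passed the filter through its muscle libraries alone had to be lower in the lesion. This held for Adipoq in all 3 contrasts, Plin1 in the fibrosarcomas of each species, Plin4 in the Spalax contrasts and Retn in mouse. The counts and medians are therefore descriptions, and the adjusted p given below for these members does not test a fall. Fewer fat cells and less RNA per fat cell cannot be told apart in these bulk libraries. Skeletal muscle markers fell as well, so loss of muscle cannot be told apart from either for members that muscle also expresses, such as Plin4 and Lipe.

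**Figure D1:**
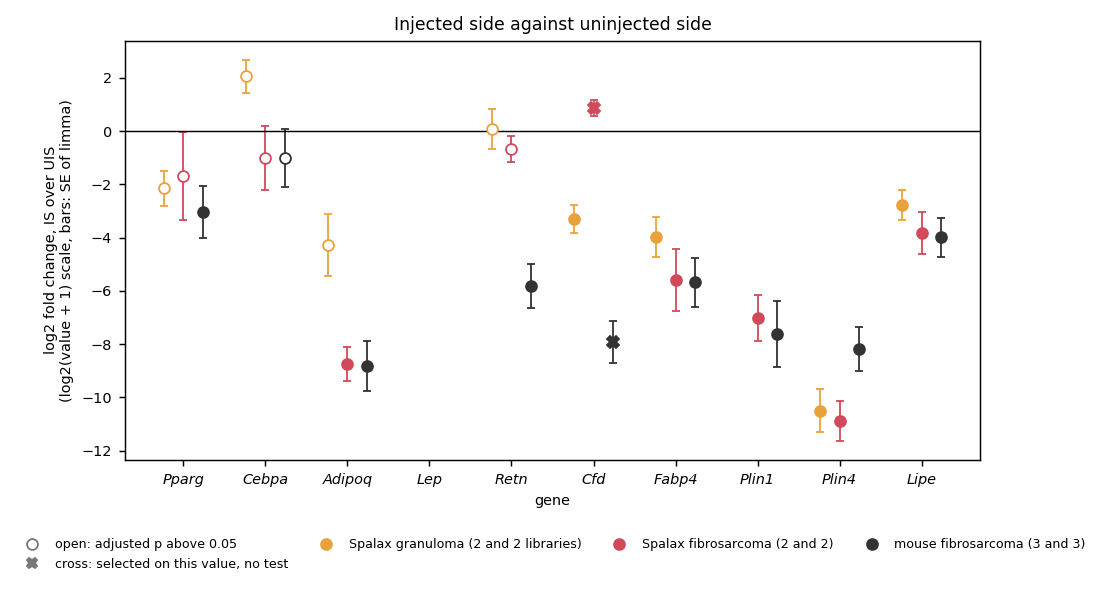
The log2 fold change of each fat gene, IS against UIS on the log2(value + 1) scale, is shown with its standard error for granuloma, Spalax fibrosarcoma and mouse fibrosarcoma. Filled circles passed the adjusted p threshold of 0.05 and open circles did not, and crosses mark the Cfd values it was selected on, which carry no test. Plin4 fell furthest in the Spalax contrasts, at −10.50 and −10.89, while Cfd lay at −3.30 in granuloma, 0.87 in Spalax fibrosarcoma and −7.92 in mouse.

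The size of these changes depends on how libraries are scaled. Scaling by total reads in place of the deposited size factors raised the median log2 fold change of all genes by 0.75 in granuloma, 0.83 in Spalax fibrosarcoma and 1.10 in mouse. In granuloma it moved Adipoq from −4.27 to −3.81 and Plin4 from −10.50 to −9.90. The share of calls that were higher on IS then went from 48% to 75.3%, from 47.8% to 76.2% and from 50.5% to 82.9%. None of the called members changed direction. With 2 animals per group the counts also rest on single libraries: leaving 1 library out gave 1 or 2 called members in granuloma and 0 to 7 in Spalax fibrosarcoma, with 0 when the UIS library of either animal, 2230 or 2240, was left out. The count over all genes moved with it, from 5339 to 0 without either of these UIS libraries and to 8397 or 8290 without the IS library of animal 2240 or 2230. In granuloma it went from 3581 to between 98 and 2882. In mouse 7 or 8 members were called without 1 library, and 4238 to 7023 of all genes.

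Pparg, the master regulator of fat cell differentiation (mouse GRCm38 chr6:115360951-115490399), measured 123 and 100 on UIS and 31.9 and 18.1 on IS in granuloma animals 600 and 976. It measured 488 and 129 on UIS and 360 and 16.0 on IS in fibrosarcoma animals 2230 and 2240. In mice 1019, 1023 and 512 it measured 623, 1264 and 112 on UIS and 121, 42.1 and 28.9 on IS. Pparg was lower on IS in 7 of 7 animals, by 1.36 times in animal 2230 and by between 3.85 and 30.0 times in the other 6, but IS and UIS overlapped among the fibrosarcomas of each species. On the log2 scale the change was −3.05 ± 0.98 (SE, adjusted p = 0.0427, limma) in mouse, −2.16 ± 0.67 (adjusted p = 0.0699, limma) in granuloma and −1.68 in Spalax fibrosarcoma (adjusted p = 0.461, limma). The mouse value no longer passed with scaling by total reads (adjusted p = 0.15, limma), nor without the UIS library of mouse 1019 or 1023 or the IS library of mouse 1023 or 512 (adjusted p = 0.104 to 0.122, limma).

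Cebpa, which maintains the differentiated fat cell and is also used by myeloid cells (chr7:35119293-35121928), measured higher on IS in both granuloma animals. It measured 69.9 and 36.5 on UIS against 247 and 185 on IS in animals 600 and 976, without overlap, or 3.53 and 5.08 times higher. In fibrosarcoma animals 2230 and 2240 it measured 1022 and 176 on UIS against 486 and 91.0 on IS, 2.10 and 1.93 times lower. Mice 1019, 1023 and 512 had 1024, 3348 and 157 on UIS and 641, 511 and 200 on IS, so that 2 mice were lower and 1 higher on IS. None of these passed the test with limma: the log2 fold change was 2.06 ± 0.62 in granuloma (adjusted p = 0.0639), −1.01 in Spalax fibrosarcoma (adjusted p = 0.544, limma) and −1.01 in mouse (adjusted p = 0.48, limma), where scaling by total reads gave 0.05. In granuloma Cebpa passed in 2 of 7 alternatives that kept every library. These were scaling by total reads, at 2.79 (adjusted p = 0.028, limma), and DESeq2, at 2.03 (adjusted p = 0.0117). Scaling by total reads raised the median of all genes by 0.75 in this contrast. Leaving out 1 library gave 1.60 to 2.52 for Cebpa. The response of Cebpa differed between fibrosarcoma and granuloma by −3.07 ± 1.44 on the log2 scale, which did not pass (adjusted p = 0.946, limma interaction term).

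Adipoq encodes adiponectin, the hormone that is most specific to fat cells (chr16:23146536-23158028), and it came close to 0 in every lesion. On UIS it measured 45.8 and 55.4 in granuloma animals 600 and 976, and on IS 0 and 6.04, from 0 and 10 reads. Fibrosarcoma animals 2230 and 2240 had 1346 and 616 on UIS and 0.600 and 1.84 on IS, from 1 and 3 reads. Mice 1019, 1023 and 512 had 2462, 7122 and 606 on UIS and 8.27, 2.37 and 2.63 on IS. IS and UIS did not overlap in any of the 3 lesions. In animal 600 Adipoq was at least 21.0 times lower on IS, with IS set at the floor of 3 reads per library, and in animal 976 it was 9.16 times lower (95% exact counting interval 4.57 to 20.3). The fold was 2245 (402 to 88767) in animal 2230 and 334 (114 to 1625) in animal 2240, and 298, 3002 and 230 in the mice. These intervals cover counting error only.

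The log2 fold change of Adipoq was −8.74 ± 0.64 in Spalax fibrosarcoma (SE, adjusted p = 0.0035, limma) and −8.83 ± 0.94 in mouse (adjusted p = 0.00185, limma). In granuloma it was −4.27 ± 1.15 and did not pass (adjusted p = 0.0503, limma). It passed in 3 of 7 alternatives that kept every library, 1 of them with the animal as a replicate block (adjusted p = 0.042, limma). Leaving out 1 library gave −5.68 to −2.87. The fold changes are on the log2(value + 1) scale, which understates the change of genes close to 0. The log2 fold change was −4.46 ± 1.43 in fibrosarcoma relative to granuloma, which did not pass (unadjusted p = 0.0157, adjusted p = 0.946, limma interaction term). Adipoq was close to 0 in both kinds of lesion, so this difference follows the UIS levels and does not compare the strength of the fall. The UIS levels of the granuloma animals were the lowest of the 12 Spalax muscle libraries.

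Lep, the satiety hormone leptin (chr6:29060220-29073877), was low or at 0 in most Spalax libraries and near 0 in every lesion. On UIS it measured 4.82 and 0 in granuloma animals 600 and 976, 12.8 and 3.64 in fibrosarcoma animals 2230 and 2240, and 31.4, 157 and 8.64 in mice 1019, 1023 and 512. On IS it was at 0 in 6 of 7 lesions and at 0.53, from 1 read, in mouse 512. With IS at the floor of 3 reads Lep was at least 2.21 times lower in animal 600, 7.11 times lower in animal 2230, and 20.3 and 88.1 times lower in mice 1019 and 1023, and it was 16.4 times lower in mouse 512 (95% exact counting interval 1.99 to 755). A fall in animals 976 and 2240 was not detectable at this depth.

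Retn encodes resistin, which fat cells secrete in mice (chr8:3655770-3660110), and it fell in the mouse lesions. In Spalax it measured 57.9 and 27.1 on UIS and 50.8 and 34.4 on IS of granuloma animals 600 and 976, and 32.7 and 25.5 on UIS and 16.8 and 19.1 on IS of fibrosarcoma animals 2230 and 2240. Among the mice, animals 1019, 1023 and 512 had 78.6, 246 and 207 on UIS and 4.65, 2.97 and 0 on IS. The ranges overlapped in granuloma, lay apart but close in Spalax fibrosarcoma, and lay far apart in mouse. Retn fell by 5.83 ± 0.82 on the log2 scale in mouse (SE, adjusted p = 0.00341, limma). Its log2 fold change was 0.08 in granuloma (adjusted p = 0.949, limma) and −0.66 in Spalax fibrosarcoma (adjusted p = 0.341, limma), where scaling by total reads gave 0.11.

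Cfd (chr10:79890853-79892655) was lower on IS in granuloma and mouse and higher on IS in the Spalax fibrosarcomas. In granuloma animals 600 and 976 it measured 526 and 430 on UIS and 40.6 and 55.0 on IS. In fibrosarcoma animals 2230 and 2240 it measured 515 and 464 on UIS and 745 and 1075 on IS. In mice 1019, 1023 and 512 it measured 2133, 10980 and 3212 on UIS and 32.6, 19.0 and 6.84 on IS. IS and UIS did not overlap in any of the 3 lesions, and the direction was shared by the animals of each. In granuloma Cfd was 12.9 times (95% exact counting interval 9.78 to 17.4) and 7.82 times (6.20 to 9.95) lower on IS. In the fibrosarcomas it was 1.45 and 2.31 times higher, and in the mice 65.5, 579 and 469 times lower.

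In granuloma Cfd fell by 3.30 ± 0.51 on the log2 scale (SE, adjusted p = 0.0146, limma). Leaving out 1 library at a time, which leaves a side with 1 sample that is assumed to vary like the other, kept the log2 fold change between −3.52 and −3.09 but moved the adjusted p to between 0.0511 and 0.109. The values in the fibrosarcomas, 0.87 ± 0.29 in Spalax and −7.92 ± 0.77 in mouse, and their difference of 8.79 ± 1.06, are those Cfd was selected on. In the same contrast of Spalax fibrosarcoma against mouse 1 of the other 9 members passed the threshold, Retn, beside 4.55% of the 12816 genes tested, and nothing is read from this count. The difference for Retn was 5.17 ± 1.17, and Retn no longer passed with a pseudocount of 0.1, with scaling by total reads, with edgeR on recovered reads, with the low-value filter met within each species, or with the animal as a replicate block.

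**Figure D2:**
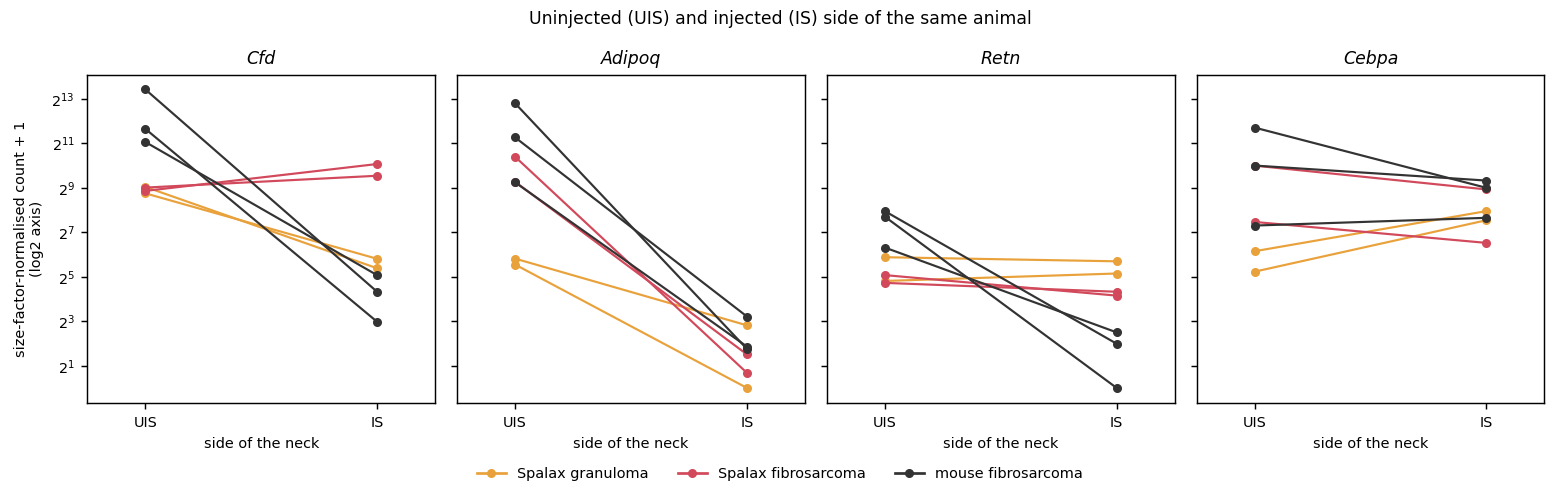
Normalised counts plus 1, on a log axis, of Cfd, Adipoq, Retn and Cebpa on UIS and IS of each tumor-bearing animal, with a line joining the sides of an animal. The Cfd lines fall in granuloma and mouse and rise in both Spalax fibrosarcomas, where UIS lies at 464 and 515 and IS at 745 and 1075, while the Adipoq lines fall in all 7 animals.

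Cfd also lay apart between the Spalax lesions: the fibrosarcoma IS libraries, at 745 and 1075, did not overlap the granuloma IS libraries, at 40.6 and 55.0. The difference was 4.21 ± 0.44 on the log2 scale, or 4.17 ± 0.51 when taken between the changes from UIS to IS. The fibrosarcoma libraries are among those on which Cfd was selected, so these differences are descriptions, and nothing is read from the calls of Cfd below. Between the IS libraries limma called 0% of 14562 genes and 0 of 6 members tested, with 1 member, Cfd, and 591 of all genes at an unadjusted p under 0.05, and DESeq2 on recovered reads called 1 member, Cfd. Between the changes limma called 0% of 15584 genes and 0 of 9 members, with 3 members and 766 of all genes at an unadjusted p under 0.05. DESeq2 called 2 members there, Cfd and Adipoq. Adipoq was close to 0 in both kinds of lesion, so nothing is read from its call. edgeR called 0 members in either contrast.

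Fabp4, the carrier of fatty acids in the fat cell cytoplasm, which capillary endothelium and macrophages also express (chr3:10204088-10208576), measured 4510 and 3375 on UIS and 521 and 115 on IS of granuloma animals 600 and 976. It measured 13064 and 4934 on UIS and 498 and 54.1 on IS of fibrosarcoma animals 2230 and 2240. Among the mice, animals 1019, 1023 and 512 had 32708, 61593 and 5551 on UIS and 417, 805 and 242 on IS. IS and UIS did not overlap, and the fall was between 8.65 and 91.2 times. For Fabp4 the log2 fold change was −3.98 ± 0.74 in granuloma (adjusted p = 0.0213, limma), −5.60 ± 1.18 in Spalax fibrosarcoma (adjusted p = 0.0262, limma) and −5.69 in mouse (adjusted p = 0.0049, limma). Fabp4 was still counted at 54.1 or more in every lesion.

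Plin1 and Plin4 encode perilipins, the proteins that coat the lipid droplet. Plin1 (chr7:79720218-79732903), the perilipin of fat cells, measured 3.62 and 8.24 on UIS and 1.45 and 1.21 on IS of granuloma animals 600 and 976, too low for a test. It measured 374 and 125 on UIS and 1.80 and 0 on IS of fibrosarcoma animals 2230 and 2240, or 208 times lower (95% exact counting interval 70.3 to 1014) and at least 67.9 times lower. In mice 1019, 1023 and 512 it measured 1698, 2474 and 107 on UIS and 6.20, 2.97 and 1.05 on IS. As for Adipoq, IS and UIS did not overlap in the fibrosarcomas of either species, with a log2 fold change of −7.02 ± 0.87 in Spalax fibrosarcoma (adjusted p = 0.00817, limma) and −7.63 in mouse (adjusted p = 0.005, limma).

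Plin4 (chr17:56100591-56109803), which coats droplets of fat and also of skeletal muscle, fell furthest of the members tested in the Spalax lesions. It measured 7813 and 5294 on UIS and 7.98 and 1.21 on IS of granuloma animals 600 and 976, the latter from 11 and 2 reads. In fibrosarcoma animals 2230 and 2240 it measured 6291 and 5905 on UIS and 5.40 and 0.615 on IS, the latter from 9 and 1 reads. Among the mice, animals 1019, 1023 and 512 had 7958, 14946 and 51735 on UIS and 24.8, 116 and 79.5 on IS. No IS library came near a UIS library, and the log2 fold change was −10.50 ± 0.80 in granuloma (adjusted p = 0.00541, limma), −10.89 ± 0.75 in Spalax fibrosarcoma (adjusted p = 0.00296, limma) and −8.20 in mouse (adjusted p = 0.00161, limma). In granuloma its log2 fold change lay between −11.51 and −9.48 with 1 library left out. Plin4 passed the filter through its UIS libraries alone in the Spalax contrasts, so its change there could only be a fall. Plin4 differed from several fat genes in 1 muscle library: mouse 512, lowest of the 3 mice on UIS for Adipoq, Plin1 and Fabp4, was highest for Plin4. For Cfd and Retn mouse 1019 was the lowest on UIS.

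Lipe encodes hormone-sensitive lipase, which releases fatty acids from stored fat and is also used by muscle (chr7:25379527-25398710). It measured 236 and 219 on UIS and 37.0 and 28.4 on IS of granuloma animals 600 and 976, and 1177 and 409 on UIS and 81.0 and 28.3 on IS of fibrosarcoma animals 2230 and 2240. In mice 1019, 1023 and 512 it measured 1776, 3923 and 730 on UIS and 210, 106 and 55.8 on IS. The groups did not overlap and the fall was between 6.38 and 37.2 times. For Lipe the log2 fold change was −2.77 ± 0.57 in granuloma (adjusted p = 0.0268, limma), −3.83 ± 0.78 in Spalax fibrosarcoma (adjusted p = 0.0243, limma) and −3.99 in mouse (adjusted p = 0.00709, limma). Of the exon bases of Lipe 15.6% lie under a gene of the opposite strand in the mouse annotation, and the strand setting of the counting is not given in the sources used here.

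Other genes of fat cell metabolism were read from lists by function, beside the shares of all genes called lower given above. The shares called higher were 11.7%, 17.4% and 22.8% in granuloma, Spalax fibrosarcoma and mouse. The filter held for list genes too: one that passed it through muscle libraries alone could only be lower, and through lesion libraries alone only higher. Which list genes these are was not taken, so the counts are descriptions and an adjusted p does not test the direction. Among lipid droplet genes, 2 of 6 tested were lower on IS in granuloma, 4 of 7 in Spalax fibrosarcoma and 4 of 7 in mouse, and none was higher. Plin5, a perilipin of tissues that burn fat, had log2 fold changes of −10.25, −9.52 and −8.19 in that order (adjusted p = 0.00855, 0.00169 and 0.00108, limma), and Cidec, which fuses droplets in white fat, stood at −7.02 in Spalax fibrosarcoma and −8.75 in mouse. Among lipolysis genes limma called 2 of 5, 2 of 5 and 4 of 6 lower and none higher, while DESeq2 called 1 higher and 3 lower in granuloma. Pnpla2, the lipase that starts triglyceride breakdown, had log2 fold changes of −4.21, −3.17 and −5.40, and Mgll, the lipase that ends it, of −3.45, −4.07 and −3.75.

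The list of fatty acid and triglyceride synthesis moved in both directions. In granuloma 5 of 12 genes were lower and 4 higher, in Spalax fibrosarcoma 6 of 13 and 2, and in mouse 8 of 15 and 2. Acacb, the acetyl-CoA carboxylase of the mitochondrial surface, had log2 fold changes of −5.63, −4.55 and −7.41, and Thrsp, a lipogenic factor, of −4.27, −9.07 and −7.72. Pck1, which supplies glycerol for triglyceride, stood at −7.79 in Spalax fibrosarcoma and −10.55 in mouse. Among genes of uptake 5 of 8, 3 of 8 and 6 of 8 were lower. Slc2a4, the insulin-regulated glucose transporter of fat and muscle, had log2 fold changes of −7.95, −9.22 and −8.20, and Aqp7, the glycerol channel, of −7.92, −10.05 and −8.04. Fabp5, a fatty acid carrier of many cell types, was the gene of this list that was higher, by 2.66 in Spalax fibrosarcoma and 3.06 in granuloma.

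Of the transcription factors of fat cells outside the members, 3 of 8, 3 of 8 and 6 of 9 were lower on IS and none higher, with Klf15 at log2 fold changes of −5.45, −3.72 and −6.51. Of the adipokine receptors, 2 of 5, 3 of 5 and 4 of 5 were lower. Adipor2, a receptor of adiponectin, had log2 fold changes of −3.01, −3.23 and −1.81, and Lepr, the leptin receptor, of −4.30 and −3.50 in the granuloma and the Spalax fibrosarcoma. Other secreted products of fat went both ways, with 1, 1 and 2 of 7 lower and 3, 1 and 1 higher. Agt, the angiotensin precursor, was lower in all 3 lesions, while Apln, the peptide apelin, was higher by 6.15, 5.04 and 4.29. The list genes were taken by known function.

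Since Cfd is also a complement protease, the other genes of the alternative pathway and its receptors were set beside it. In granuloma, where Cfd fell, limma called 0 of 5, with 4 of them at an unadjusted p under 0.05, edgeR called 0 and DESeq2 called 4. In Spalax fibrosarcoma 2 of 5 were higher, C3, the central complement protein, by 4.11 ± 0.49 on the log2 scale and C5ar1, the receptor of the C5a fragment, by 2.52 ± 0.51 (adjusted p = 0.00767 and 0.0242, limma). In mouse 2 of 5 were higher, C3ar1, the receptor of the C3a fragment, by 4.29 ± 1.14 and Cfp, properdin, by 2.37 ± 0.73 (adjusted p = 0.0236 and 0.0377, limma). The median log2 fold change of the 5 genes was 3.05 in granuloma, 2.42 in Spalax fibrosarcoma and 2.37 in mouse, beside −0.01, 0.03 and 0.11 over all genes.

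Markers of other cells moved between UIS and IS as well, and the limit of the filter given for the list genes holds for their counts. Skeletal muscle markers were lower in 6 of 6, 6 of 6 and 7 of 7 tested. Macrophage markers were higher in 4 of 6, 3 of 6 and 4 of 8, with summed levels of 1159 to 3026 on UIS and 9003 to 20841 on IS in granuloma, 2105 to 2746 and 9976 to 36215 in Spalax fibrosarcoma, and 847 to 6537 and 5051 to 41807 in mouse. Between the fibrosarcomas the macrophage sum was higher in animal 2230 and Cfd was higher in animal 2240. Among the Spalax muscle libraries tolerant animal 2251 was highest for both, with Cfd at 2456 and a macrophage sum of 14157. Fibroblast markers were higher in 5 of 6, 3 of 6 and 4 of 6. Endothelial markers were called lower by limma in 0, 4 and 1 of 6, with 3 of 6 in granuloma at an unadjusted p under 0.05, where edgeR called 0 and DESeq2 called 1 lower. Their sums were 9563 to 10741 on UIS and 4545 to 5171 on IS in granuloma, 9275 to 10438 and 3424 to 4181 in Spalax fibrosarcoma, and 8513 to 14025 and 1757 to 9862 in mouse. Brown fat markers were lower in 1, 1 and 3 of 6. Fat precursor markers were higher in 1 and lower in 1 of 4 in granuloma, and limma called 0 of 4 in Spalax fibrosarcoma and 0 of 5 in mouse, with 2 at an unadjusted p under 0.05 in each, where edgeR called 0 and 0 and DESeq2 2 and 1. The part of these cells in the levels of Cfd, Cebpa, Fabp4, Pparg, Plin4 and Lipe, which are known from some of them, was not tested. The same holds for list genes that muscle also uses, such as Slc2a4.

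**Figure D3:**
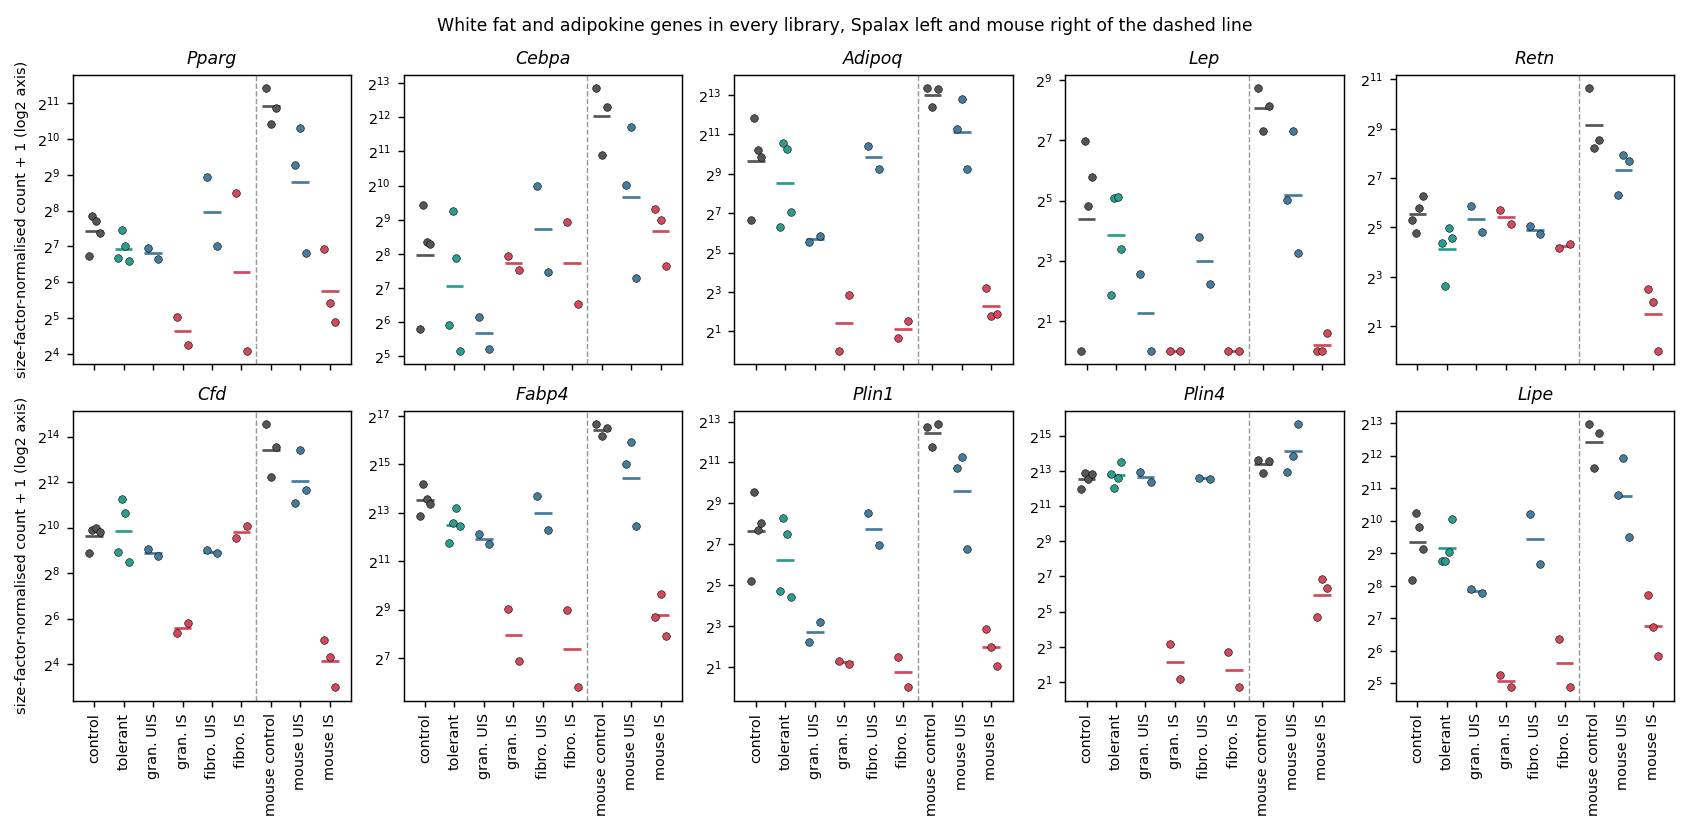
Normalised counts plus 1, on a log axis, of the 10 fat genes in all 25 libraries by group, 1 point per library, with the bar at the mean on the log scale. Adipoq spans 76.7 to 1537 among the 4 tolerant Spalax, while Plin4 spans 4142 to 11688 there. The lesion groups lie lowest for most genes, and for Cfd the Spalax fibrosarcoma IS libraries lie among the muscle libraries.

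Fat genes varied strongly between animals in muscle without a lesion. Adipoq measured 98.3, 3613, 1202 and 919 in Spalax controls 1042, 1075, 2095 and 6038, and 76.7, 1537, 1211 and 133 in tolerant animals 2218, 2251, 2261 and 2375. Cfd measured 466, 939, 1024 and 891 in the controls and 480, 2456, 1616 and 361 in the tolerant animals. The 2 groups overlapped for both genes, and for both the granuloma and fibrosarcoma UIS levels given above lay within or below the control range. Plin1 spanned 36.4 to 760 in controls and 20.1 to 312 in tolerant animals, and Lep 0 to 125 and 2.64 to 33.9. Fabp4 and Plin4 varied less, at 7475 to 18697 and 4011 to 7563 in controls and at 3414 to 9276 and 4142 to 11688 in tolerant animals. Tolerant animal 2251 also stood apart in marker sums, with 14157 for macrophages and 203620 for fibroblasts. The other tolerant animals had 992 to 3560 and 6748 to 41853.

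None of the comparisons of Spalax muscle called a member. Against control, limma called 0 of 10 members and 0% of 13909 genes on the UIS of the 4 tumor-bearing animals, with 2 members and 2315 of all genes at an unadjusted p under 0.05. The log2 fold change was −1.88 ± 1.30 for Adipoq (adjusted p = 0.474, limma) and −0.72 ± 0.26 for Cfd (adjusted p = 0.241, limma), and the median of the 10 members was −0.74. In tolerant animals against control limma called 0 of 10 members and 0% of 14020 genes, with 2 members and 733 of all genes at an unadjusted p under 0.05. There Adipoq differed by −1.09 and Cfd by 0.20 (adjusted p = 0.978 for Cfd, limma). Between UIS and tolerant muscle limma called 0 of 9 members tested and 0.00713% of 14029 genes, with 0 members and 718 of all genes at an unadjusted p under 0.05, and the log2 difference was −0.79 for Adipoq and −0.92 ± 0.56 for Cfd (adjusted p = 0.88, limma). edgeR and DESeq2 called 0 members in these contrasts, which share their UIS, tolerant and control libraries. Adipoq ranged from 98.3 to 3613 within the controls alone, and the difference seen for Adipoq was not larger than that spread.

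No member was called in mouse muscle either. Adipoq measured 10654, 5349 and 10058 in controls M1, M2 and M5, against 2462, 7122 and 606 on UIS of mice 1019, 1023 and 512. Cfd measured 23859, 4744 and 11868 against 2133, 10980 and 3212, and Lep 430, 158 and 284 against 31.4, 157 and 8.64. The groups overlapped for Adipoq, Cfd, Cebpa, Plin4 and Lipe. They did not overlap for Lep, whose highest UIS library lay just under the lowest control, nor for Pparg, Retn, Fabp4 and Plin1. Pparg was at 112 to 1264 on UIS against 1363 to 2762 in controls, and Retn at 78.6 to 246 against 295 to 1619. Fabp4 was at 5551 to 61593 against 72754 to 102950, and Plin1 at 107 to 2474 against 3428 to 7474. The share of all genes without overlap was not taken, so nothing is read from this separation. limma called 0 of 10 members and 0% of 14792 genes, with 7 members and 1621 of all genes at an unadjusted p under 0.05, and edgeR and DESeq2 called 0 members. The log2 fold change was −1.92 for Adipoq and −1.39 for Cfd (adjusted p = 0.496 for Cfd, limma), with a median of −1.95 over the 10 members beside −0.02 over all genes. Plin4 stood apart from the other members, with 51735 in mouse 512 beside 7654 to 12687 in controls.

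Brown fat markers also differed between muscle libraries, in some with the levels of the members and in others not. In mice their summed level was 54656 to 73251 in controls, 3763 to 33321 on UIS and 956 to 2156 on IS, and Ucp1, the uncoupling protein that defines brown fat, measured 45978, 24005 and 42398 in controls and 13180, 2217 and 0 on UIS of mice 1019, 1023 and 512. In Spalax the sum was 584 to 1587 in 10 of 12 muscle libraries, 7701 on UIS of granuloma animal 976 and 19615 on UIS of fibrosarcoma animal 2230. On UIS of animal 976 Fabp4, at 3375, and Lipe, at 219, were the lowest of the 12 Spalax muscle libraries. Ucp1 measured 13000 on UIS of animal 2230 and at most 6.57 in the other 15 Spalax libraries, with 0 in both fibrosarcoma IS libraries. That library was also the highest of the 4 UIS libraries for Pparg, Cebpa, Adipoq, Lep, Fabp4, Plin1 and Lipe. Without it the log2 fold change in Spalax fibrosarcoma was −8.18 for Adipoq, −4.90 for Fabp4, −10.84 for Plin4 and −3.06 for Lipe, and 0 members and 0 of all genes passed the test with limma, as was also the case without the UIS library of animal 2240. The part of brown fat in the levels of the members was not tested.

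Across the 12 Spalax muscle libraries Adipoq fell into a lower and a higher range. It was at 45.8 to 133 in 5 libraries and at 616 to 3613 in 7, of which 5 were dual-indexed, so no correlation was taken over all 12. The 5 libraries lowest in Adipoq were also the 5 lowest for Pparg, Cebpa and Plin1. For Lep, Cfd, Fabp4 and Lipe 4 of the 5 were shared, and for Retn and Plin4 2. The share of all genes with the same lowest libraries was not taken, so nothing is read from these counts. Within the 7 higher libraries Plin1 was the gene most closely related to Adipoq on the log scale, with Pearson r = 0.92 (exact permutation p = 0.0139, 0.125 after adjustment over 9 genes) and Spearman rho = 0.82 (exact permutation p = 0.0341, adjusted 0.216). None of the 9 relations passed after adjustment, and r of Plin1 was 0.37 without the 2 libraries farthest from the median of Adipoq.

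**Figure D4:**
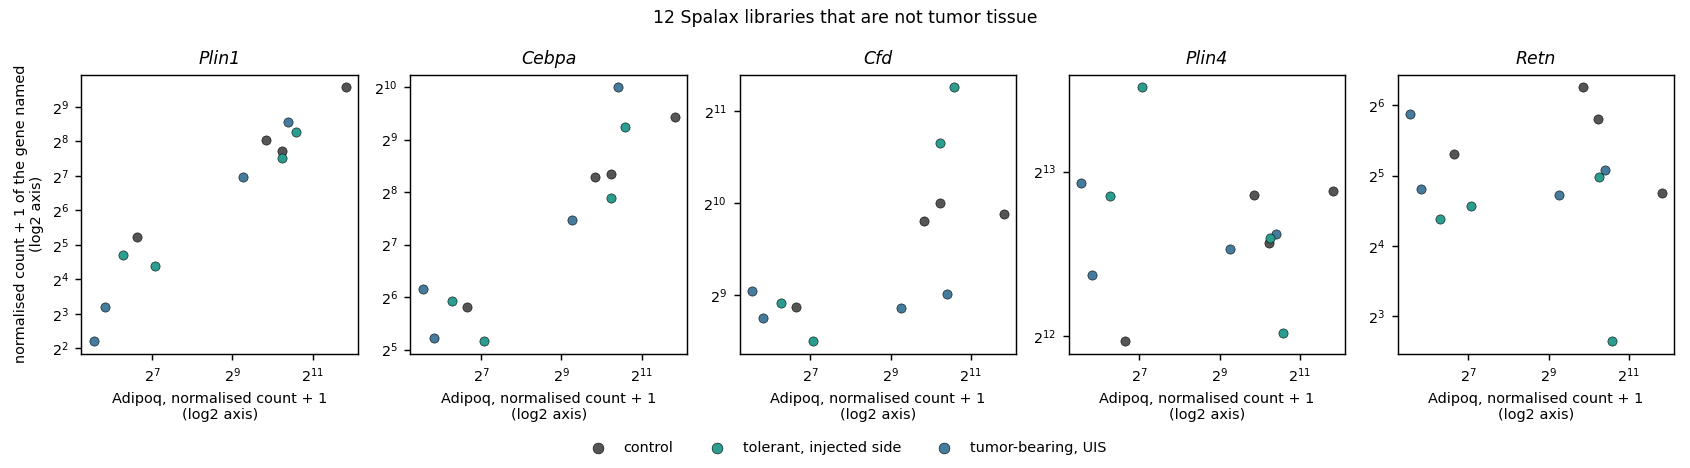
Plin1, Cebpa, Cfd, Plin4 and Retn are plotted against Adipoq in the 12 Spalax muscle libraries, as normalised counts plus 1 on log axes, 1 point per library. The 5 libraries with Adipoq at 45.8 to 133 stand apart from the 7 at 616 to 3613, and hold the 5 lowest values of Plin1 and Cebpa but 2 of the 5 lowest of Plin4 and Retn.

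As a description, the genes of each table were also ranked by how closely their pattern followed Adipoq or Cfd, as Pearson r of log2(value + 1) over 16 Spalax or 9 mouse libraries, which include the lesions. In Spalax, of 13255 genes, those nearest Adipoq were Lgals12 (r = 0.97), Plin1 (0.96), Thrsp (0.94), Fam110d (0.93) and Pck1 (0.92). Those nearest Cfd were Cadm3 (0.88), Crip2 (0.86), Ltc4s (0.84), Mmp11 (0.81) and Amph (0.78), none of them a member, and Adipoq stood at rank 113 with r = 0.60. In mouse, of 14492 genes, those nearest Adipoq were Pck1, Fam213a, Scp2, Ephx2 and Nudt13, with r between 0.99 and 1.00. Those nearest Cfd were Mettl7a1, Car4, Sult1a1, Ganc and Kcna6, also between 0.99 and 1.00, and Adipoq stood at rank 25 with r = 0.98. All points within a species share the split into muscle and lesion, and libraries differ in depth.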

How the data were processed

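RNA was sequenced by the authors from strand-specific libraries as single-end reads and trimmed with Trimmomatic. The authors name TopHat2 for the alignment, while the submitters' processing notes name TopHat 1.4.1, HTSeq, DESeq and GRCm38. The deposited tables, 1 per species, hold a signal per gene: read counts divided by 1 size factor per library. In every library 100% of values were whole multiples of the value of 1 read within a relative tolerance of 1e-06, so reads were recovered. Spalax gene names had each lower-case t written as a comma, which was restored (Retn among them). Genes were placed with the GENCODE annotation of GRCm38, for mouse only.

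The values as log2(value + 1) were fitted with limma 3.58.1 (R 4.3.3, trend) over genes that reached a value of 10 in a number of libraries equal to the smaller group, with Benjamini-Hochberg adjustment over all genes and a threshold of 0.05. The alternatives were a pseudocount of 0.1, no filter, scaling by total reads, edgeR 4.0.16 (quasi-likelihood) and DESeq2 1.42.0 on recovered reads, the animal as a replicate block, 1 model over all libraries of a species, and leaving out 1 library. The filter met within each species was added after the data were seen. On recovered reads edgeR called 2978 genes in granuloma, 5096 in Spalax fibrosarcoma and 6572 in mouse. Scripts were tested on simulated data.

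IS and UIS were paired by animal in the labels. The correlation of their deviations from the group means was 0.009 in granuloma, −0.002 in Spalax fibrosarcoma and 0.135, 0.055 and 0.182 in mouse. Replicates were separate animals. The 2 tables were normalised separately, so species were compared only through the change from UIS to IS. The 10 genes were all named. In other lists up to 4 genes called in a comparison were named by largest change, as were the 5 genes most like Adipoq or Cfd. The value of 1 list gene is not reported here. The genes and lists were chosen with earlier results of these data known.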

Additional observations from a re-analysis of the deposited data

Results flagged for a closer look

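Of 30 sets of 4 libraries checked for a library far from the rest, 4 held one. The threshold stands for about 1 in 20 by chance only where values are normally distributed, and the sets share libraries, so nothing is read from this count. Lipe was 1060 in tolerant animal 2375, above 430 to 524 in the other 3. On UIS of fibrosarcoma animal 2230, within the UIS of the 4 tumor-bearing Spalax, Pparg was 488, Cebpa was 1022 and Fabp4 was 13064. These 3 values come from the library in which Ucp1 also stood apart.

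Cebpa measured higher on IS in both granuloma animals and lower in both Spalax fibrosarcoma animals, a difference of −3.07 on the log2 scale that did not pass the test (adjusted p = 0.946, limma interaction term). Cfd measured lower on IS in both granuloma animals and higher in both fibrosarcoma animals, a difference of 4.17 that is given without a test, since the fibrosarcoma libraries are among those on which Cfd was selected. Between Spalax fibrosarcoma and mouse the responses of Cfd and Retn differed by 8.79 and 5.17 in the contrast on which Cfd was selected.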

How the results depend on the processing

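Of 237 alternative values of called members 198 kept their direction and call, 39 lost the call and 0 changed direction, while of 957 values of members not called 83 changed direction and 13 gained a call. In granuloma the number called went from 4 to 7 with DESeq2 and to 1 or 2 without 1 library, with 2 when IS 600 was left out. In Spalax fibrosarcoma it went from 5 to between 0 and 7 without 1 library, while the calls over all genes went from 5339 to between 0 and 8397, and in mouse from 8 to 7 or 8. Between fibrosarcoma and granuloma IS it went from 0 to 1 with DESeq2 and to 1 with 1 model over all libraries, and between their changes from 0 to 2 with DESeq2, calls that include Cfd, whose fibrosarcoma values it was selected on. Between Spalax fibrosarcoma and mouse, where Cfd was selected and nothing is read from its call, it went from 2 to 1 with a pseudocount of 0.1, with scaling by total reads, with edgeR, with the filter met within each species and with the animal as a replicate block, and to between 0 and 2 without 1 library, with 0 without fibrosarcoma UIS 2230. The pairing by animal as a replicate block gave 5 called members in granuloma, 5 in Spalax fibrosarcoma and 8 in mouse, with Adipoq passing in granuloma and Retn no longer passing between species (log2 difference 5.17, adjusted p = 0.107, limma), and changed no other call of a member.

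Scaling by total reads reversed the log2 fold change of Retn in Spalax fibrosarcoma to 0.11 and of Cebpa in mouse to 0.0528. Leaving out 1 library gave −0.46 to 0.61 for Retn in granuloma, −3.89 to 0.52 for Pparg and −2.27 to 0.26 for Cebpa in Spalax fibrosarcoma, −2.20 to 0.0065 for Cebpa in mouse and −0.28 to 0.64 for Cfd in tolerant against control muscle. The cause of these changes was not tested. Over all genes, calls went from 3581 to 5383 with DESeq2 and to 6314 with 1 model in granuloma, and from 583 to 1900 with DESeq2 and 97 with the block between species. From 0, or from 1 between UIS and tolerant, DESeq2 gave 516, 60 and 38 in the Spalax muscle contrasts, 342 in mouse muscle, 153 between the IS libraries and 88 between their changes, and 1 model gave 19 and 3 in the last pair. Adipoq, Lep and Plin1 rested on 0 to 16 reads in each lesion, Plin4 on 1 to 11 in the Spalax lesions and Retn on 0 to 9 in the mouse lesions. This limits how precisely their folds are known.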
